A study of Mus musculus with 79 samples.

Results

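The 10 genes described here encode transcription factors of adipogenesis and of the maintained adipocyte state. They were chosen by gene symbol from a list of known adipogenic factors, namely *Pparg*, *Cebpa*, *Cebpb*, *Cebpd*, *Ebf2*, *Zfp423*, *Klf4*, *Rxra*, *Rxrg* and *Nr1h3*. All 10 were found in the deposited tables, and all 10 passed the filter on low expression, out of 14873 genes tested. RNA sequencing covered 79 samples of caudal vertebrae (CV), which are rich in constitutive bone marrow adipose tissue, lumbar vertebrae (LV), used as a bone with little fat, and inguinal white adipose tissue (iWAT). The mice were 4 to 6 months old, the deposited description giving 4 to 5 months, and received either PBS or leptin at 100 ng per h into a cerebral ventricle (ICV) for 9 days. WT mice were BMAd-Pnpla2+/+ and cKO mice were BMAd-Pnpla2-/-, in which ATGL, the triglyceride lipase encoded by *Pnpla2*, was deleted in bone marrow adipocytes. CV came from female WT mice (PBS n = 5, leptin n = 5), female cKO mice (n = 4 and 4), male WT mice (n = 5 and 8) and male cKO mice (n = 5 and 4). A further 11 male WT mice also carried a subcutaneous insulin pellet for the 9 days (PBS n = 5, leptin n = 6). LV came from the same female WT (n = 5 and 5) and female cKO mice (n = 4 and 4), and iWAT from the same female WT mice (n = 5 and 5).

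In fat cell differentiation, C/EBPβ and C/EBPδ are induced early and act on the genes of PPARγ and C/EBPα, which then maintain each other and drive the genes of the mature adipocyte. PPARγ binds DNA together with a retinoid X receptor (RXR), and the liver X receptor encoded by *Nr1h3* uses the same partner. ZFP423 and EBF2 mark committed precursor cells, with EBF2 also known for the brown and beige fat programme, while KLF4 acts at the start of the cascade. C/EBPβ and C/EBPδ are in addition responsive to cAMP, glucocorticoids and inflammation in many cell types.

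The sequence upstream of the transcription start is shown for 4 of these genes, because their levels differed most between groups or because they stand at successive steps of the cascade. Each window holds the 250 bases before a RefSeq start in GRCm38.p6, is written from 5′ to 3′ on the strand of the gene, and has matches to 5 short motifs in capitals on either strand. *Cebpb* lies on chromosome 2 (167688915 to 167690432), and its window is chr2:167688665-167688914 on the plus strand. *Cebpa* lies on chromosome 7 (35119293 to 35121928), with its window at chr7:35119043-35119292 on the plus strand. For *Pparg* (chromosome 6, 115360879 to 115490404), the most downstream of 3 listed starts is shown, chr6:115421816-115422065 on the plus strand, from which the adipocyte form PPARγ2 is transcribed. *Zfp423* (chromosome 8, 87661810 to 87962053) is read from the minus strand, and the window is chr8:87959596-87959845.
Cebpb: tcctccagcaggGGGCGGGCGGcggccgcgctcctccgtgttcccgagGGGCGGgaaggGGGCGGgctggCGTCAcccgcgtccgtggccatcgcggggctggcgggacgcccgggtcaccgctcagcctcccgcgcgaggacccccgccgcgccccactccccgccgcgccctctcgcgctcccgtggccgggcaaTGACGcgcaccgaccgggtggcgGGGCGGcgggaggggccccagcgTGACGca
Cebpa: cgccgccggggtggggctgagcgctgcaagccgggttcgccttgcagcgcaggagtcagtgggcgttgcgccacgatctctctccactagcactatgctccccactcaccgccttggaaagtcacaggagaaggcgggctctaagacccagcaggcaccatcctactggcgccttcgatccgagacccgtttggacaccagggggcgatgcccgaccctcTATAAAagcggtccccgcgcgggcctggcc
Pparg: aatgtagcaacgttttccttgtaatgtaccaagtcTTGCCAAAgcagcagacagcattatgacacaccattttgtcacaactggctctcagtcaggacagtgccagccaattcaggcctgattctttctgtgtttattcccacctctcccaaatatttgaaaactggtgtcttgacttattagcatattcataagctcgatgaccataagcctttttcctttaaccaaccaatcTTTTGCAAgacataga
Zfp423: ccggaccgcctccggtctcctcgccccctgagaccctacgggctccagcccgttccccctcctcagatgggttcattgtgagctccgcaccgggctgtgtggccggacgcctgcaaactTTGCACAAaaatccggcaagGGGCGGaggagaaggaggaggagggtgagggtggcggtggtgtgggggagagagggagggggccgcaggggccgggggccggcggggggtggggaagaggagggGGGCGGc

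The motifs searched were TTNNGNAA, a loose form of the C/EBP site, TGACG, the core part of a cAMP response element, TATAAA, the TATA box, GGGCGG, a site of Sp and KLF factors, and TGTTCT, one arm of a glucocorticoid response element. Of the 32851 windows of all genes, 36.8% held the C/EBP letters, 17.8% the TGACG letters, 12.4% the TATA letters, 32.7% the GGGCGG letters and 16.1% the TGTTCT letters. The *Cebpb* window held TGACG at 3 places, the nearest beginning 7 bases before the start, and GGGCGG at 5 places. The *Pparg* window held the C/EBP letters at 2 places, the nearest beginning 16 bases before the start, and the *Cebpa* window held TATAAA beginning 30 bases before it. In the *Zfp423* window the C/EBP letters began 131 bases before the start, and GGGCGG was present at 2 places. RefSeq windows were found for 8 of the 10 genes, and none was listed for *Cebpd* or *Ebf2*.

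The remaining genes lie on chromosome 16 (*Cebpd*, 15887286 to 15889545), chromosome 14 (*Ebf2*, 67233292 to 67430952), chromosome 4 (*Klf4*, 55527137 to 55532475), chromosome 2 (*Rxra*, 27676445 to 27763319, and *Nr1h3*, 91184061 to 91202829) and chromosome 1 (*Rxrg*, 167598362 to 167639623). Values are given per gene, so that transcripts from different starts of *Pparg* were not separated.

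Levels are given in TPM, in which read numbers are scaled for gene length and for the depth of the sample. Tests used the counts in edgeR's quasi-likelihood test, with p-values adjusted over all 14873 genes by the Benjamini-Hochberg method. A gene was called changed at an adjusted p below 0.05 and a log2 fold change of 0.5 or more in either direction. Total counts per sample ranged from 16100377 to 19364106 for CV, from 17638318 to 19100698 for iWAT and from 28717516 to 29757254 for LV. The summed level of 5 adipocyte markers followed the tissue labels, at 38190 to 54980 TPM in iWAT, 5975 to 7844 TPM in CV and 252 to 425 TPM in LV of female WT mice with PBS, and none of the 5 was at 0 in LV. CV samples of all groups also held 14210 to 59940 TPM of 6 skeletal muscle markers. The targeted gene *Pnpla2* was not called in cKO against WT CV, with log2 fold changes of -0.60 to -0.41 in the 4 comparisons, in RNA that also came from cells in which it was not deleted.

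The first question was where these factors are expressed. Most members were lowest in LV and highest in iWAT, and *Klf4*, *Ebf2* and *Zfp423* were as high or higher in CV. In female WT mice with PBS, *Cebpa* was at 677 ± 98.8 TPM in iWAT, 147 ± 17.8 TPM in CV and 23.4 ± 3.76 TPM in LV (SD, n = 5 each). *Pparg* followed the same order, at 203 ± 24.3 TPM, 54.7 ± 5.22 TPM and 8.32 ± 1.17 TPM. Each tissue was separate from the next for both genes, and in iWAT *Cebpa* stood above 98.4% of all tested genes. The same order was found for *Nr1h3*, at 84.5 ± 15.1 TPM in iWAT, 15.8 ± 2.56 TPM in CV and 5.70 ± 1.05 TPM in LV. For *Rxra*, the RXR of most tissues, the means were 72.8 ± 5.49, 53.3 ± 3.50 and 6.81 ± 0.898 TPM. *Rxrg*, the RXR with the most restricted expression, was at 15.6 ± 1.89, 7.81 ± 1.90 and 0.736 ± 0.192 TPM.

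*Klf4* and the precursor factors *Zfp423* and *Ebf2* had another order. *Klf4* was highest in CV, at 108 ± 15.9 TPM against 44.6 ± 8.98 TPM in iWAT and 11.9 ± 1.76 TPM in LV. *Zfp423* was at 12.1 ± 1.41 TPM in CV and 9.42 ± 0.233 TPM in iWAT, and *Ebf2* at 9.84 ± 1.36 and 7.90 ± 1.30 TPM. In LV both were close to absent, at 0.43 to 0.69 TPM for *Zfp423* and 0.09 to 0.12 TPM for *Ebf2*, the latter from 15 to 19 counts per sample. *Cebpd* was alike in the 3 tissues by TPM, at 46.3 ± 7.12 TPM in CV, 46.7 ± 7.16 TPM in LV and 40.9 ± 4.36 TPM in iWAT.

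**Figure D1:**
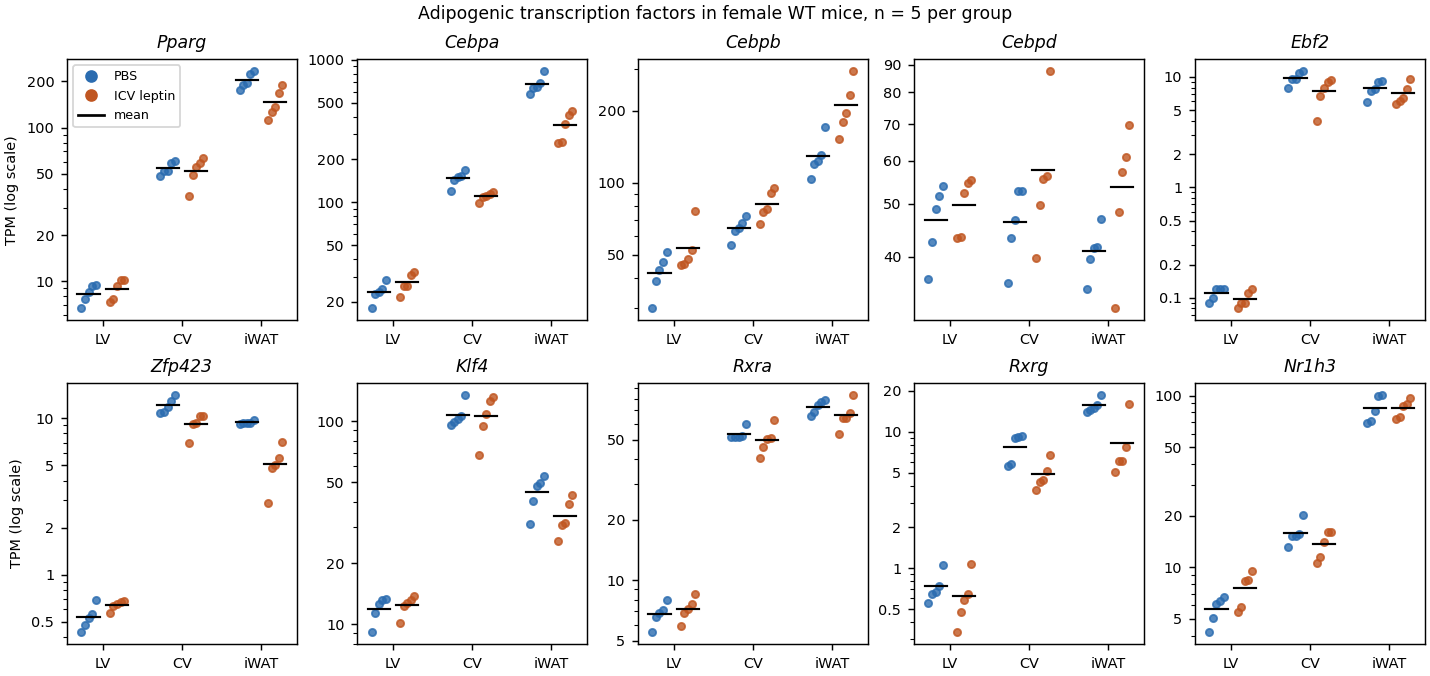
TPM of each of the 10 genes on a log axis in LV, CV and iWAT of female WT mice, with 1 point per mouse (n = 5 per group, blue PBS, orange ICV leptin) and a bar at the mean. The points climb from LV through CV to iWAT for *Pparg*, *Cebpa* and *Nr1h3*, while *Klf4* is highest in CV, and in iWAT the leptin points of *Cebpa* and *Zfp423* all lie below the PBS points.

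Against LV, 8 of the 10 genes were called in CV, 7 higher and 1 lower, where 66.6% of all tested genes were called (34.9% higher and 31.7% lower). The largest differences were in the precursor factors, with log2 fold changes of 5.41 for *Ebf2* (SE 0.134, adjusted p = 7.59e-12) and 3.45 for *Zfp423* (SE 0.132, adjusted p = 1.12e-10). *Rxrg* (2.31), *Klf4* (2.07), *Rxra* (1.89), *Pparg* (1.60) and *Cebpa* (1.56) followed. *Cebpd* was the gene called lower in CV (-1.11), although its TPM values overlapped. *Cebpb* (-0.49) and *Nr1h3* (0.36) were under the fold threshold. These fold changes are relative to the median gene, which by TPM was itself 1.12 higher on the log2 scale in CV than in LV, so that the sign for *Cebpb* depended on the scale, with mean TPM of 64.6 ± 6.60 in CV and 42.0 ± 8.21 in LV. By limma on log2(TPM + 1), *Cebpb* was higher in CV by 0.63 (adjusted p = 0.000549), *Cebpd* was not called and *Nr1h3* was (1.33).

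In CV against iWAT, 7 genes were called where 50.5% of all genes were, 1 of them higher in CV (26% of all genes) and 6 lower (24.5%). *Nr1h3* (-2.56), *Cebpa* (-2.36), *Pparg* (-2.03), *Cebpb* (-1.16), *Rxrg* (-1.09) and *Rxra* (-0.59) were lower in CV on the log2 scale, and *Klf4* was higher (1.11). *Zfp423* was under the fold threshold (0.22, adjusted p = 0.0437), and no difference was called for *Ebf2* (0.16, adjusted p = 0.265) or *Cebpd* (0.02, adjusted p = 0.864). All 10 genes were called in iWAT against LV, where 66.5% of all genes were, 9 of them higher in iWAT (33.9% of all genes) and *Cebpd* lower (32.6%). By limma on log2(TPM + 1) the call of *Cebpd* in iWAT against LV was lost (-0.18, adjusted p = 0.151), as was that of *Rxra* in CV against iWAT, which fell under the fold threshold (-0.44). The members' median log2 fold change was 1.75 in CV against LV, -0.84 in CV against iWAT and 3.09 in iWAT against LV, beside -0.01 to 0.02 over all tested genes. In RNA of whole tissue, fewer cells of a type and less RNA per cell cannot be told apart. The 6 neutrophil markers summed to 146800 to 178100 TPM in LV, 2152 to 11370 TPM in CV and 196 to 478 TPM in iWAT in the same groups. The 5 erythroid markers summed to 177500 to 233900 TPM in LV, 1994 to 5901 TPM in CV and 2344 to 3197 TPM in iWAT. The part of these cells in the tissue differences was not tested.

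**Figure D2:**
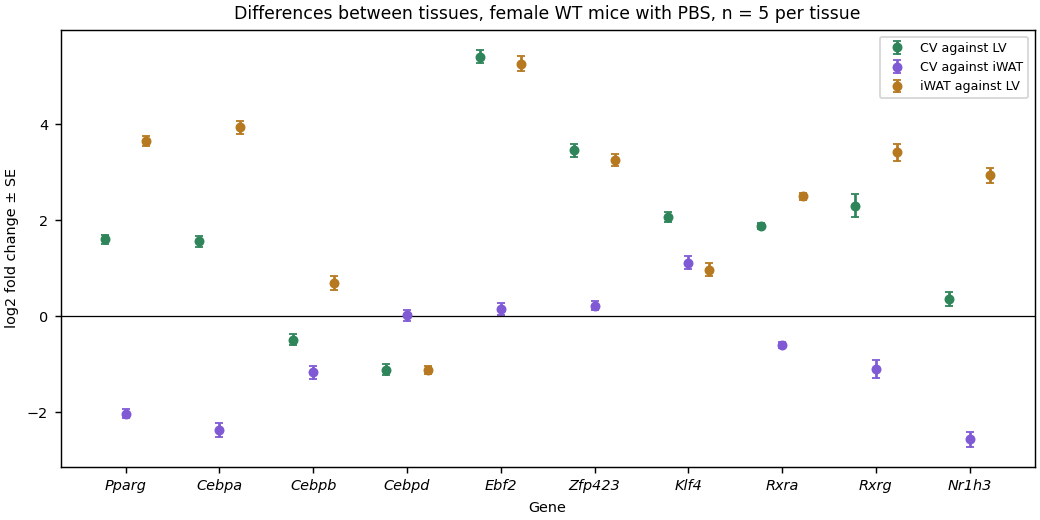
Log2 fold change with its standard error for each gene between pairs of tissues in female WT mice with PBS (n = 5 per tissue). *Ebf2* and *Zfp423* stand at 5.41 and 3.45 in CV against LV and near 0 in CV against iWAT, whereas *Pparg*, *Cebpa* and *Nr1h3* lie below -2 in CV against iWAT.

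The second question was how the factors responded to ICV leptin in iWAT, the fat depot taken as responsive. Here 4 of the 10 genes were called, where 15.1% of all genes were: *Cebpa*, *Zfp423* and *Rxrg* fell (7.87% of all genes fell) and *Cebpb* rose (7.24% rose). *Cebpa* was at 641, 637, 576, 837 and 694 TPM with PBS and at 266, 413, 355, 259.5 and 440.0 TPM with leptin. Every leptin mouse was below every PBS mouse, and the log2 fold change was -0.88 (SE 0.181, adjusted p = 0.00642). *Zfp423* was nearly constant with PBS, at 9.19, 9.37, 9.38, 9.33 and 9.81 TPM, and lower with leptin, at 5.58, 7.05, 5.01, 2.89 and 4.81 TPM. Again the groups did not overlap (log2 fold change -0.82, SE 0.161, adjusted p = 0.00488).

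*Cebpb* moved the other way. It was at 131, 170.5, 119, 104 and 123 TPM with PBS and at 195, 179, 232, 294 and 153 TPM with leptin. Of the 5 leptin mice, 4 were above all PBS mice and 1 was within their range, and the log2 fold change was 0.80 (SE 0.199, adjusted p = 0.0148). *Rxrg* was at 18.8, 15.8, 14.9, 14.6 and 14.02 TPM with PBS and at 7.76, 16.1, 5.09, 6.12 and 6.13 TPM with leptin. The leptin mouse at 16.1 TPM lay among the PBS mice and the other 4 lay below them (log2 fold change -0.82, SE 0.265, adjusted p = 0.0434). This call was lost in 9 of the 10 fits that left out 1 mouse, with adjusted p of up to 0.0997, whereas the calls of *Cebpa*, *Cebpb* and *Zfp423* held in all 10.

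*Pparg* itself was at 203 ± 24.3 TPM with PBS and 147 ± 32.2 TPM with leptin in iWAT (SD, n = 5 each) and was not called (log2 fold change -0.38, SE 0.150, adjusted p = 0.0858). *Cebpd* was at 40.9 ± 4.36 and 53.7 ± 14.3 TPM (0.49, adjusted p = 0.0656). Differences of *Rxra* (-0.04), *Nr1h3* (0.09), *Ebf2* (-0.06) and *Klf4* (-0.29) were not called, with adjusted p of at least 0.206. The members' median log2 fold change was -0.18, beside 0.07 over all genes. The 5 adipocyte markers summed to 38190 to 54980 TPM with PBS and 13020 to 30740 TPM with leptin, with 3 of the 5 called lower, 4 of 5 erythroid markers were called lower and 2 of 4 marrow stromal markers higher. Summed levels of the 5 macrophage markers, at 120.1 to 306 and 153 to 368 TPM, and of the 4 luminal epithelium markers, at 756 to 1196 and 568.1 to 1293 TPM, overlapped between the groups. The part of these cell types in the changes of the 10 genes was not tested.

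In CV, the tissue of marrow fat, none of the 10 genes was called for ICV leptin in any of 4 comparisons by edgeR. By unadjusted p below 0.05, 5 of the 10 differed in female WT, 4 in male WT, 6 in female cKO and 5 in male cKO mice, where 25.8%, 19%, 11.6% and 9.66% of all genes did. DESeq2 called 1 member in each (*Rxrg*, *Cebpd*, *Cebpa* and *Cebpb*, in that order), where it called 6.84%, 3.12%, 1.47% and 1.44% of all genes. The shares of all genes called by edgeR were 5.04% in female WT, 1.75% in male WT, 0.0269% in female cKO and 0.188% in male cKO mice. Of the 10 genes, 6 had fold changes below 0 in all 4 comparisons (*Pparg*, *Cebpa*, *Ebf2*, *Zfp423*, *Rxrg* and *Nr1h3*), 2 had them above 0 in all 4 (*Cebpb* and *Cebpd*) and 2 were mixed (*Klf4* and *Rxra*). How many of all tested genes kept 1 sign in all 4 was not counted. Within series of mouse numbers in the labels, by mean log2(TPM + 1), the signs were less uniform. In male WT mice, *Pparg* (0.0399) and *Nr1h3* (0.0764) were above 0 in the 100s, and *Ebf2* (0.0745) and *Zfp423* (0.13) in the 600s. *Cebpa* and *Rxrg* stayed below 0, and *Cebpb* and *Cebpd* above 0, in each series of the 4 comparisons.

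*Cebpa* had log2 fold changes of -0.74 to -0.44 in the 4 comparisons. In female WT mice it was at 151, 168.5, 152, 119.6 and 144 TPM with PBS and at 98.3, 109.8, 109, 118 and 115 TPM with leptin. No leptin mouse reached the lowest PBS mouse, and the adjusted p was 0.0355, but the log2 fold change of -0.45 (SE 0.116) was under the threshold. By adjusted p alone, *Cebpa* and *Zfp423* were the 2 members below 0.05, where 8.78% of all genes were. In female cKO mice *Cebpa* was at 109 to 196 TPM with PBS and at 66.7 to 89.6 TPM with leptin, again without overlap (-0.74, SE 0.195, adjusted p = 0.265). In male WT mice the PBS values were 75.3, 95.2, 102, 63.5 and 100.2 TPM, and the 8 leptin mice had a lowest value of 57.6, a median of 63.8 and a highest value of 77.6 TPM (-0.44, SE 0.127, adjusted p = 0.0757). In male cKO mice the values were 79.4 to 104 TPM with PBS and 57.3 to 75.0 TPM with leptin (-0.45, SE 0.161, adjusted p = 0.366). The groups did not overlap in 3 of the 4 comparisons. How many of all tested genes were without overlap was not counted, for these or for the other comparisons.

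*Zfp423* was at 14.2, 10.9, 11.9, 10.8 and 12.8 TPM with PBS and at 10.3, 6.96, 10.4, 9.15 and 9.31 TPM with leptin in female WT mice. The groups were just separate, with a log2 fold change of -0.41 (SE 0.0974, adjusted p = 0.0276). In the other CV comparisons its log2 fold change was -0.67 in female cKO, -0.29 in male cKO and -0.14 in male WT mice, with adjusted p of at least 0.161. *Rxrg* fold changes were -0.71 in female WT, -0.50 in male WT, -0.39 in female cKO and -0.45 in male cKO mice (adjusted p = 0.0970 to 0.634). *Pparg* was at 54.7 ± 5.22 and 52.6 ± 10.5 TPM in female WT mice with PBS and leptin (-0.07) and at 48.4 ± 12.3 and 33.1 ± 5.55 TPM in female cKO mice (-0.42, adjusted p = 0.384), with the male groups between these fold changes. *Rxra* stayed between -0.12 and 0.04 on the log2 scale.

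Summed adipocyte markers in CV were 5975 to 7844 TPM with PBS and 3654 to 6308 TPM with leptin in female WT mice, and 4011 to 6527 and 3571 to 6303 TPM in male WT mice, with 3 of the 5 called lower in each sex. In female WT mice, 3 of 5 osteoblast markers (2276 to 6316 TPM with PBS and 5279 to 16020 TPM with leptin), 3 of 5 erythroid markers and 2 of 5 macrophage markers (340 to 455 and 557 to 710 TPM) were also called higher, with 1 erythroid and 1 macrophage marker called lower. In male WT mice, 3 of 5 erythroid markers and 1 of 4 marrow stromal markers were called higher. Without overlap, summed erythroid markers there were 1910 to 5317 TPM with PBS and 6676 to 17520 TPM with leptin, and endothelial markers 196.5 to 237 and 241 to 328 TPM. Muscle markers were 38840 to 46380 TPM with PBS and 20710 to 39310 TPM with leptin. In cKO mice, adipocyte markers were 4522 to 7252 and 3501 to 5197 TPM in females and 4270 to 6568 and 4067 to 5041 TPM in males. Erythroid markers there were 963 to 4081 and 2048 to 6595 TPM in females and 1895 to 5522 and 4167 to 18530 TPM in males. Osteoblast markers were 6430 to 14420 and 6334 to 12370 TPM in female cKO mice and 854 to 5751 and 916 to 2775 TPM in male cKO mice. The part of these cell types in the differences of the 10 genes, by leptin or by genotype, was not tested.

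**Figure D3:**
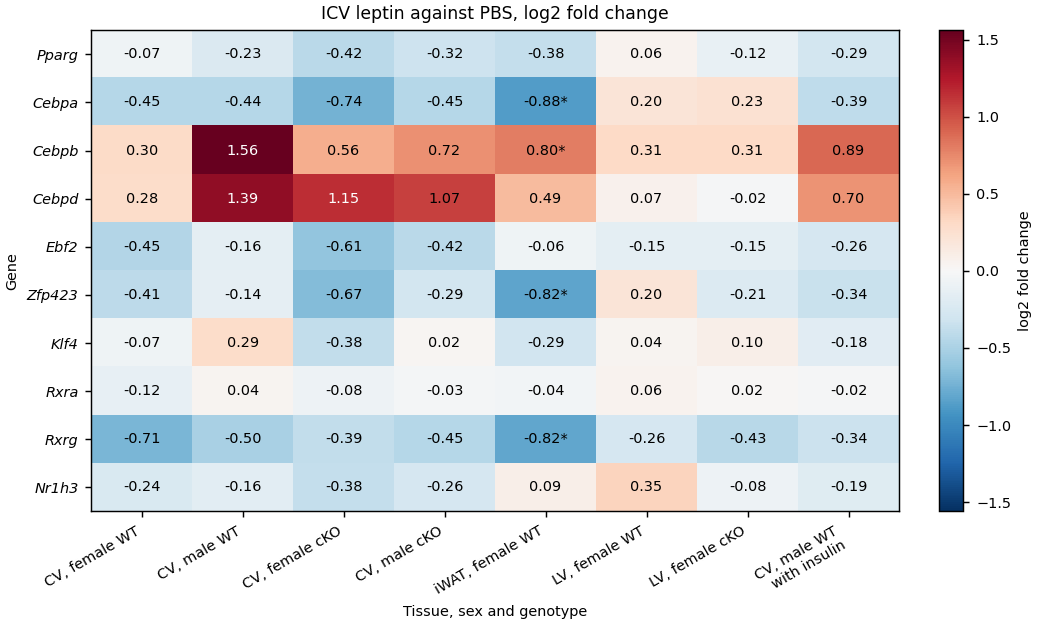
Log2 fold change of ICV leptin against PBS for each gene (rows) in each tissue, sex and genotype (columns), in colour and in figures, with a star where the gene was called. Stars stand only in the iWAT column (*Cebpa* -0.88, *Cebpb* 0.80, *Zfp423* -0.82 and *Rxrg* -0.82), and the strongest colours in CV are those of *Cebpb* (1.56) and *Cebpd* (1.39) in male WT mice.

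*Cebpb* and *Cebpd* in male WT mice had the largest fold changes and also the largest spread. The 5 PBS mice had *Cebpb* levels of 30.2, 44.7, 41.4, 33.2 and 39.2 TPM. The 8 leptin mice fell into separate clusters, 5 at 48.6, 53.8, 49.8, 48.3 and 42.7 TPM and 3 at 203, 213 and 246 TPM. The 3 high mice were those with numbers in the 600s and the other 5 had numbers in the 100s, as given in the labels. PBS mice of the 600s were at 33.2 and 39.2 TPM, within the range of the 100s. In female WT mice with leptin, those of the 600s were at 95.4, 77.7 and 67.1 TPM and those of the 100s at 75.8 and 91.1 TPM. In male cKO mice with leptin, those of the 600s were at 49.8 and 70.2 TPM and the others at 51.8 and 48.3 TPM. The fold change over all mice was 1.56 on the log2 scale (SE 0.502) and was not called (adjusted p = 0.110).

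*Cebpd* split in the same mice. The leptin mice of the 600s were at 157, 174 and 226 TPM, those of the 100s at 45.6, 107, 65.7, 55.6 and 41.1 TPM, and the PBS mice at 32.9 to 47.9 TPM (log2 fold change 1.39, SE 0.401, adjusted p = 0.0757). Tested in the 600s alone (3 leptin and 2 PBS mice), *Cebpb* (2.58, adjusted p = 0.000145), *Cebpd* (2.28, adjusted p = 0.000386) and *Klf4* (0.79, adjusted p = 0.0249) were called by edgeR, where 3.85% of all genes were. In the 100s alone (5 and 3 mice), the fold changes were 0.26, 0.48 and -0.10 and no member was called (0.222% of all genes, 3 members at an unadjusted p below 0.05). The split was chosen after the values had been seen. As *Cebpb* and *Cebpd* themselves set the 600s apart, p-values from the 600s cannot serve as a test and are left out. *Pparg* was also lower in the leptin mice of the 600s, at 26.9, 21.7 and 26.4 TPM, than in those of the 100s, at 32.7 to 51.9 TPM, and the 2 PBS mice of the 600s were at 26.2 and 52.9 TPM. Summed erythroid markers were 12520 to 17520 TPM in the leptin mice of the 600s and 6676 to 10720 TPM in those of the 100s, and skeletal muscle markers 20710 to 23620 and 29330 to 39310 TPM. The summed luminal epithelium (129.9 to 161.8 and 50.1 to 75.5 TPM), keratinocyte (3.18 to 3.48 and 2.28 to 2.77 TPM) and macrophage markers (367 to 378 and 384 to 530.5 TPM) did not overlap between these mice either. The part of these cell types in the split was not tested.

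**Figure D4:**
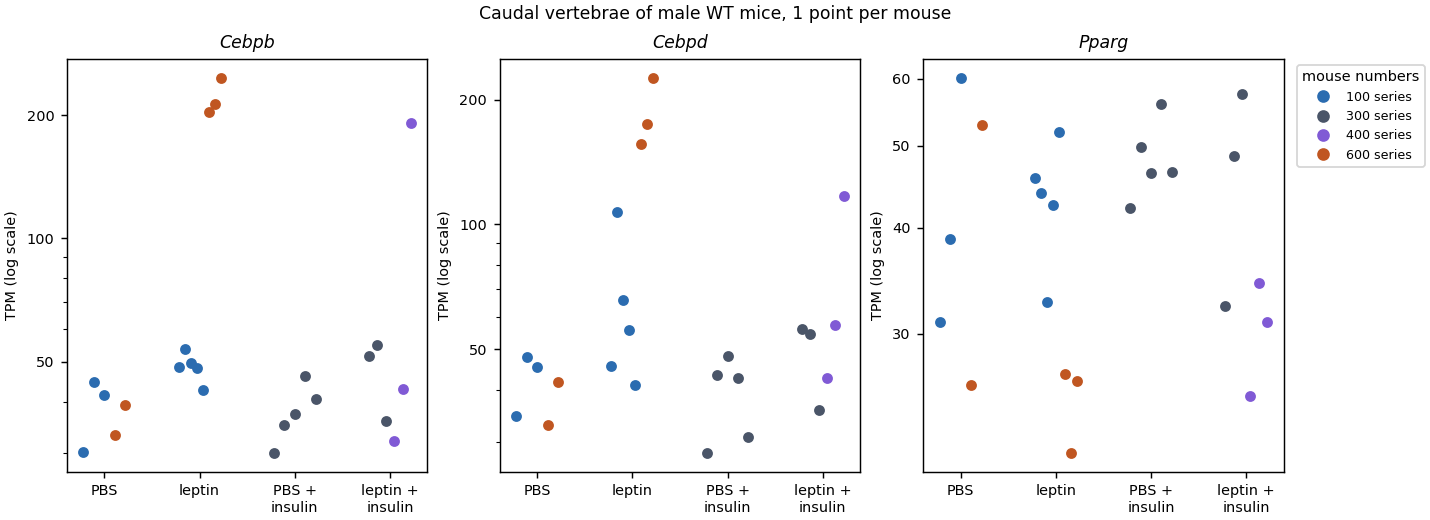
TPM of *Cebpb*, *Cebpd* and *Pparg* on a log axis in CV of male WT mice, with 1 point per mouse and the colour giving the series of its number in the labels. For *Cebpb*, 3 leptin mice of the 600s (203 to 246 TPM) and 1 mouse with leptin and insulin (191 TPM) stand far above all others, which lie between 29.97 and 54.9 TPM.

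In the other CV groups *Cebpb* and *Cebpd* were higher with leptin on average. *Cebpb* was at 31.3 to 40.6 TPM in male cKO mice with PBS and at 51.8, 48.3, 49.8 and 70.2 TPM with leptin, so that the groups did not overlap (0.72, SE 0.149, adjusted p = 0.0904). *Cebpd* was at 26.8 to 52.3 TPM in female cKO mice with PBS and at 83.3, 48.9, 67.4 and 134 TPM with leptin (1.15, SE 0.350, adjusted p = 0.322). Female WT mice had *Cebpb* means of 64.6 ± 6.60 and 81.4 ± 11.6 TPM (0.30, adjusted p = 0.172).

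In LV, no member was called for leptin in WT or cKO females by edgeR or DESeq2, with 2 and 1 members at an unadjusted p below 0.05 (14.7% and 8.95% of all genes). By edgeR 0% of all genes were called in either genotype, and DESeq2 called 144 genes (0.968%) in WT and 72 (0.484%) in cKO LV. *Cebpa* was at 23.4 ± 3.76 and 27.3 ± 4.41 TPM in WT and 20.6 ± 2.08 and 26.7 ± 2.62 TPM in cKO LV, with PBS and leptin. Its fold change there was above 0 (0.20 and 0.23, adjusted p of at least 0.383), opposite in sign to CV. The difference between the tissues was tested directly in female WT mice, where 3.45% of all genes were called, and it was called for *Cebpa* (0.62 higher in LV than in CV, SE 0.156, adjusted p = 0.0315) and *Zfp423* (0.59, SE 0.160, adjusted p = 0.0460). With the mouse as a block, since CV and LV came from the same animals, *Cebpa* was still called and *Zfp423* was not (adjusted p = 0.0873). Between CV and iWAT the leptin effect differed for no member by edgeR or DESeq2, where edgeR called 15.5% and DESeq2 18.9% of all genes. At an unadjusted p below 0.05 in edgeR, 1 member differed, where 29.6% of all genes did. Calls in iWAT and not in CV are therefore not shown to be a difference between these tissues. For *Cebpa* the iWAT effect was lower by 0.46 (SE 0.228, adjusted p = 0.182) and for *Zfp423* by 0.45 (SE 0.195, adjusted p = 0.130).

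The third question was whether loss of ATGL in bone marrow adipocytes altered these factors. In the 5 comparisons of cKO with WT mice (CV of each sex with PBS and with leptin, and female LV with PBS), none of the 50 tests of members was called by edgeR or DESeq2, and 2 had an unadjusted p below 0.05. Over all genes, edgeR called 0% in 4 of these and 0.0134% in male CV with leptin, DESeq2 called 3 to 47 genes (0.0202% to 0.316%), and 2.61% to 9.92% had an unadjusted p below 0.05. With PBS, *Pparg* was at 54.7 ± 5.22 TPM in WT (n = 5) and 48.4 ± 12.3 TPM in cKO CV (n = 4) of females and at 41.8 ± 14.4 and 42.1 ± 4.47 TPM in males (n = 5 each). With leptin it was at 52.6 ± 10.5 TPM in WT (n = 5) and 33.1 ± 5.55 TPM in cKO CV (n = 4) of females, a log2 fold change of -0.58 (SE 0.174, adjusted p = 0.980). The effect of leptin did not differ between genotypes for any member in females or males, with 0% of all genes called in each, and not between the sexes in WT CV (0%). At an unadjusted p below 0.05 in edgeR, 1 member differed by genotype in females, 0 in males, and 2 by sex. These were *Cebpb* (female minus male -1.22, adjusted p = 0.656) and *Cebpd* (-1.07, adjusted p = 0.637). By mean log2(TPM + 1), the male leptin differences of these genes were 0.335 and 0.482 in the 100s, and 2.58 and 2.28 in the 600s. For the differences by genotype and by sex, DESeq2 called none of the members and 0 to 30 of all genes. In edgeR, 2.64% to 7.6% of all genes had an unadjusted p below 0.05.

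The last question was whether insulin pellets altered the response of male WT CV. Insulin mice had numbers in the 300s and 400s and all others in the 100s and 600s, so the series and insulin cannot be told apart. No member was called by edgeR or DESeq2 with leptin and insulin against leptin alone (edgeR called 0.363% of all genes, 2 members at an unadjusted p below 0.05), against PBS (1.1%, 2 members) or against PBS with insulin (0.558%, 2 members), nor with PBS and insulin against PBS (0%, 0 members). DESeq2 called 174, 269, 229 and 4 genes in the same order, and 6.56% to 17.2% of all genes had an unadjusted p below 0.05. These comparisons share mice. *Cebpa* was at 91.3 ± 15.3 TPM with PBS and insulin (n = 5) and 68.0 ± 18.9 TPM with leptin and insulin (n = 6), beside 87.2 ± 17.0 TPM with PBS (n = 5) and 66.0 ± 7.33 TPM with leptin (n = 8). Mice with PBS and insulin were all of the 300s, with a *Cebpa* median of 92.3 TPM. Mice with leptin and insulin were at 59.1 to 91.4 TPM (median 88.9, n = 3) in the 300s. Those of the 400s were at 42.0 to 63.9 TPM (median 62.5, n = 3), so that leptin and series partly coincide within the insulin groups. *Cebpb* in the mice with leptin and insulin was at 51.7, 54.9, 35.8, 32.0, 43.0 and 191 TPM, and *Cebpd* at 56.2, 54.6, 35.7, 42.7, 57.1 and 117 TPM. The same mouse was high in both. Against leptin alone, the fold changes of -0.76 for *Cebpb* and -0.85 for *Cebpd* (adjusted p = 0.398 and 0.204) became 0.52 and -0.00348 when the leptin mice of the 600s were left out. That fit was chosen after the values had been seen, and it kept the high mouse with leptin and insulin. The remaining mice with leptin and insulin, at 32.0 to 54.9 TPM of *Cebpb*, overlapped the leptin mice of the 100s, at 42.7 to 53.8 TPM. The leptin effect did not differ by insulin for any member by edgeR (0% of all genes called) or DESeq2 (21 genes called). At an unadjusted p below 0.05 in edgeR there were 0 members, where 9.31% of all genes were.

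Genes around these factors were counted in 7 lists of textbook targets and partners, which were chosen with earlier results of these data known. Of 23 adipocyte targets of PPARγ and C/EBPα, 11 fell and none rose in female WT CV, 9 fell and none rose in male WT CV, 2 fell in each cKO CV and 16 fell and 1 rose in iWAT. Over all genes, edgeR called 5.04% in female WT CV, 1.75% in male WT CV, 0.0269% in female cKO CV, 0.188% in male cKO CV and 15.1% in iWAT. Median log2 fold changes were -0.67, -0.54, -0.83 (female cKO), -0.46 (male cKO) and -0.99 in the same order, beside -0.01 to 0.07 over all genes. *Mgll*, monoglyceride lipase, had log2 fold changes of -1.64 in female WT CV, -1.16 in male WT CV and -1.80 in iWAT, each called. The lipid droplet protein gene *Plin1* was at -1.37, -1.23 and -0.95, and *G0s2*, the inhibitor of ATGL, at -1.49, -1.92 and -2.13, each called. Mean *Lep*, the leptin gene, was 0.534 TPM with leptin and 35.5 TPM with PBS in female WT CV, 0.0613 and 16.3 TPM in male WT CV and 1.45 and 281 TPM in iWAT, and it was called lower in each. *Cfd*, which encodes adipsin, was the target that rose in iWAT (1.42, adjusted p = 0.00120).

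Among 15 other factors that promote adipogenesis, 1 fell in female WT CV, none was called in the other CV comparisons, and 3 rose and 3 fell in iWAT. The one in CV was *Mlxipl*, the carbohydrate-sensing factor ChREBP (-0.83 in female WT, adjusted p = 0.0125, and -0.41 in male WT CV). In iWAT, *Srebf1*, which drives lipid synthesis, fell by 0.87 and *Xbp1*, of the unfolded protein response, rose by 0.99. *Ebf1* (-0.52) and *Ebf3* (-0.63), relatives of *Ebf2*, fell, and *Creb1* (0.54) and *Egr2* (0.80) rose, these 4 being named after their values were seen. *Klf15*, a glucocorticoid-responsive factor, was at 0.83 in male WT and -0.12 in female WT CV without a call. Of 12 factors that restrain adipogenesis, none was called in CV and *Egr1* rose in iWAT (0.75, named after its values were seen). The 4 chosen by rule were *Foxo1* (-0.12 and 0.68 in female and male WT CV), *Klf2* (0.21 and 0.70), *Ddit3* (-0.21 and -0.34) and *Hes1* (-0.44 and -0.08).

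None of 17 partners and co-regulators of PPARγ, RXR and LXR was called for leptin in CV or iWAT, with medians of -0.10 to 0.06. The rule named *Lpin1* (-0.11 and 0.55 in female and male WT CV), *Nrip1* (-0.47 and -0.01), *Prdm16* (-0.32 and -0.31) and *Ppargc1b* (0.24 and 0.04). Of the 7 LXR targets tested, out of 8, *Scd1*, stearoyl-CoA desaturase, fell in female WT CV (-1.76), male WT CV (-0.85) and iWAT (-3.03). *Abcg1* (0.55) and *Apoe* (0.79), which move cholesterol out of cells, rose in iWAT, *Lpcat3* fell (-0.95) and *Pltp* was not called (-0.12). Of the 4 genes listed as further C/EBP genes, none was called in CV, and *Cebpz* rose in iWAT (0.50, adjusted p = 0.00408). *Cebpz* shares the name but is not a member of the C/EBP family, so its rise is no call within that family. *Cebpe*, of granulocytes, was at 0.10 and -0.32 in female and male WT CV, *Cebpg* at 0.03 and -0.15 and *Cebpz* at 0.02 and 0.08. *Ddit3*, given above, also belongs to the C/EBP family.

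Of 10 glucocorticoid-induced genes, none was called in CV or iWAT. All 10 had fold changes above 0 in male WT CV, with a median of 0.84, 9 in female and in male cKO CV (medians 0.78 and 0.66), 8 in iWAT (0.09) and 4 in female WT CV (-0.12). *Errfi1*, *Sgk1*, *Mt1* and *Mt2* were at 1.53, 1.17, 0.79 and 0.85 in male WT CV. *Sgk1*, a kinase gene induced by corticosteroids, was at 287, 329 and 298 TPM in the 3 leptin mice of the 600s, at 66.7 to 125 TPM in the 5 of the 100s and at 65.2 to 84.9 TPM with PBS. The clusters of *Cebpb* and *Sgk1* held the same mice. Levels of *Errfi1* and *Mt1* also separated the leptin mice of the 600s from those of the 100s. For *Mt2* they overlapped, at 1275 to 1690 TPM in the 600s and up to 1571 TPM in the 100s.

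**Figure D5:**
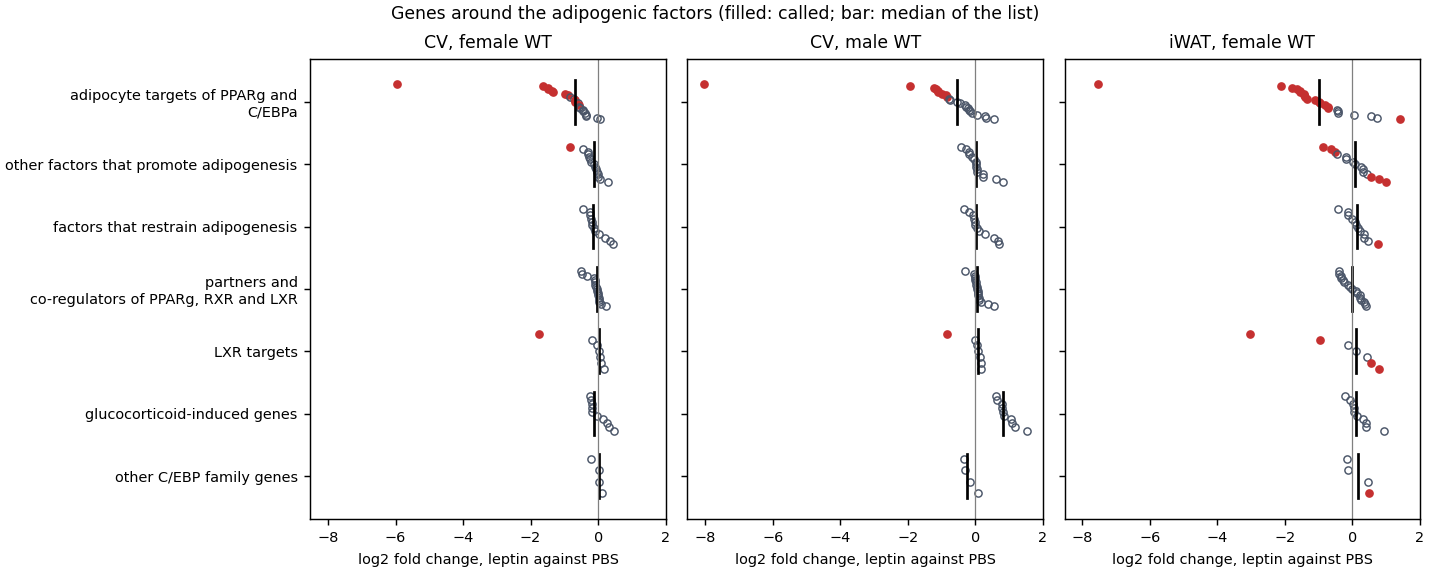
Log2 fold change of ICV leptin against PBS for each tested gene of 7 lists in CV of female WT, CV of male WT and iWAT of female WT mice, with filled points for called genes and a bar at the median of the list. The adipocyte targets lie mostly below 0 in all panels (medians -0.67, -0.54 and -0.99), and the glucocorticoid-induced genes lie above 0 in male WT CV without a call.

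Genes with a pattern like that of each member were sought over the 51 CV samples, as Pearson's r of log2(TPM + 1) among 10744 genes averaging 5 TPM or more. These samples share sex, treatment and tissue makeup, so r is a description, and r within the groups is given beside it. *Cebpb* was most like *Sik1*, a kinase gene induced by cAMP (r = 0.943, within groups 0.951), and *1700017B05Rik* (0.929 and 0.887). *Sik1* was at 94.4, 102 and 103 TPM in the leptin mice of the 600s and 87.2 TPM in the high mouse with leptin and insulin, and between 8.01 and 18.1 TPM in the other male WT mice. *Cebpd* was most like *Gadd45g* (0.934 and 0.896) and *Pim3* (0.928 and 0.916), which were also high in these mice. As the mice lie apart inside their own groups, r within groups keeps this split for *Cebpb* and *Cebpd*. *Ebf2* was most like *Scara5* (0.909 and 0.913), known from adipocyte precursors, and *Prnp* (0.901 and 0.901), and *Zfp423* most like *Palm* (0.855 and 0.765) and *Igfbp5* (0.846 and 0.680). *Pparg* was most like *Prkar2b*, a regulatory subunit of protein kinase A (0.844 and 0.794), and *Abcd2* (0.830 and 0.893), and *Nr1h3* like *Miga2* (0.853 and 0.794) and *Abcd2* (0.815 and 0.762). For *Cebpa* the values fell within groups, with *Trabd2b* (0.911 and 0.620) and *Slc24a3* (0.911 and 0.656). *Rxra* was most like *Prrc2b* (0.921 and 0.838) and *Ece1* (0.920 and 0.874), *Rxrg* like *Pgm1* (0.898 and 0.802) and *Plaat1* (0.890 and 0.817), and *Klf4* like *Vat1* (0.893 and 0.836) and *Ski* (0.873 and 0.828).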

How the data were processed

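RNA of CV, LV and iWAT was enriched with oligo dT, reverse transcribed with random primers and sequenced as paired reads on a DNBSEQ instrument. The authors cleaned the reads with SOAPnuke and aligned them with HISAT and Bowtie2 to GRCm38.p6, and the submitters' processing notes also name GRCm39 without a role. The authors deposited 1 table of estimated counts per gene, made by assigning the aligned reads to genes, and 1 table of TPM, which the authors had scaled to gene length and depth. The counting tool and its handling of strand, and the Cre used for bone marrow adipocytes, are not given in the sources used here. Of 74693 features, 39063 had a numeric gene ID and held all counts. Values of 6 genes were not whole at 51 places and were rounded.

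The 14873 genes that averaged 0.4 TPM or more across all 79 libraries entered edgeR 4.0.16 (quasi-likelihood test, TMM normalization, Benjamini-Hochberg adjustment) in R 4.3.3. Each pair of groups was fitted alone, insulin comparisons used the 4 male WT groups together, and interactions were called at an adjusted p below 0.05 only. On simulated counts in which 200 genes had a log2 change of 1.5, the test recovered 194 for leptin in female WT CV, 192 in male WT CV, 174 in female cKO CV and 169 in iWAT. Of the genes called there, 3%, 0.518%, 5.95% and 6.11% had not been changed, in the same order. Smaller changes, such as the -0.74 to -0.44 of *Cebpa* in CV, were not simulated, so the recovery at such sizes is not known. Alternatives were DESeq2 1.42.0, limma 3.58.1 on log2(TPM + 1) and log2(TPM + 0.1), other size factors and filters, no fold threshold, all CV samples in 1 fit, a covariate for the number series of the mice, the replicate number as a block (the mouse, where leptin effects were compared between tissues), and each sample left out in turn. Total counts limit the precision of genes at few reads, such as *Ebf2* in LV.

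The 10 members and all lists were chosen with earlier results of these data known. All 10 members are named throughout. From each list, the 4 genes with the largest absolute mean of the female and male WT CV leptin fold changes are named, and for each member the 2 genes with the highest r. Samples of a group are separate mice. CV, LV and iWAT with the same number came from the same mouse by their labels, and their residuals correlated at -0.024 to 0.30 per pair. Leptin and PBS mice with the same number were different mice. Promoter windows were read from RefSeq with Python 3.11.15.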

Additional observations from a re-analysis of the deposited data

Results flagged for a closer look

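Among 160 groups of 1 gene, 9 held a mouse far from the others by Dixon's criterion at the 95% level, which chance meets in about 1 of 20 groups. *Cebpb* was at 191.32 TPM and *Cebpd* at 117.17 TPM in the same male WT mouse with leptin and insulin (replicate 6), where the nearest other mice were at 54.89 and 57.13 TPM. *Cebpb* was also at 70.18 TPM in male cKO CV with leptin (replicate 4) and at 75.97 TPM in female WT LV with leptin (replicate 4). *Cebpd* was at 67.98 TPM in male cKO CV with PBS (replicate 5), and without that mouse the leptin effect there was called (1.43, edgeR adjusted p = 0.0342). *Klf4* at 135.26 TPM and *Rxra* at 59.52 TPM were both highest in the same female WT mouse in CV with PBS (replicate 5). *Rxrg* was at 16.11 TPM in iWAT with leptin (replicate 2) and at 12.28 TPM in male cKO CV with PBS (replicate 3).

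The effect of leptin differed between LV and CV of female WT mice for *Cebpa* (LV minus CV 0.617) and *Zfp423* (0.59) by the interaction term.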

How the results depend on the processing

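Alternatives to the count of members called stayed within 1.5 times in 433 cases and did not in 19. Many of the 433 were refits of comparisons with few or no genes called, such as cKO against WT, where the count could hardly move. Most of the 19 were for leptin in CV. For leptin in CV, where 0 members were called, DESeq2 called 1 in each of the 4 comparisons. In female WT mice, 2 passed without a fold threshold. In male WT mice, the series covariate in edgeR gave 1 (*Cebpd*, 1.12, adjusted p = 0.044). All CV samples in 1 edgeR fit gave 2 there (*Cebpb*, adjusted p = 0.0116, and *Cebpd*, adjusted p = 0.0127), with 418 genes called in all against 260. The mice of the 600s alone gave 3, but they were chosen after seeing their *Cebpb* and *Cebpd* values, so these calls are no test. In female cKO mice all CV samples in 1 fit gave 2 (*Cebpa*, -0.75, and *Zfp423*, -0.68), in a fit that called 507 genes in all against 4 in the fit of these groups alone. Leaving out 1 mouse gave 0 to 1 call in female WT (*Rxrg* without leptin replicate 2, *Cebpa* without PBS replicate 4), male WT (*Cebpd* without leptin replicate 1 or 5, *Cebpa* without leptin replicate 6) and male cKO CV (*Cebpd* without PBS replicate 5). It gave 3 to 4 in iWAT, where *Cebpd* was gained without leptin replicate 5 (0.62, adjusted p = 0.00901) and *Rxrg* held only without leptin replicate 2, and 8 to 9 in CV against LV.

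With the replicate block, leptin in male cKO CV gave 1 call (*Cebpd*, 1.43, adjusted p = 0.00789), and the difference between LV and CV, blocked by the mouse, gave 1 (*Cebpa*) in place of 2. The block changed no other count of members. Residuals of leptin and PBS mice with the same number had mean correlations of -0.12 to 0.20, and these mice shared only a number. Without an expression filter (*Zfp423*, adjusted p = 0.055) or by limma on log2(TPM + 1) (adjusted p = 0.0798) that difference also gave 1. *Cebpb* in CV against LV turned from -0.49 to 0.63 and 0.64 by limma on TPM with pseudocounts of 1 and 0.1, and the ratio of mean levels turned to -0.50 with TMM-normalized CPM. In CV against LV, limma also called *Nr1h3* (1.33).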
